A study of Monodelphis domestica and Mus musculus and Sus scrofa with 73 samples.

Results

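In the bat limb transcriptome, 46 of the 27026 genes in each deposited table held a nearly even level from stage 13 to stage 14 and then rose at stage 15 in both the forelimb and the hind limb. They were chosen by their measured levels. Expected counts were scaled to counts in 1000000 of the library total (CPM), and the level of a group was the mean of log2(CPM + 0.5) over its libraries. A gene was a member if its mean length was at least 1000 bases and its mean CPM at least 1, if its level rose by at least 1.5 from stage 14 to 15 and moved by less than 0.7 from stage 13 to 14 in each limb, and if every stage 15 library of a limb lay above every stage 14 library of that limb. The minimum length and CPM left 11752 genes. Of these, 305 rose by at least 1.5 in the forelimb, 254 in the hind limb and 168 in both, and 119 of the 168 had already moved by 0.7 or more between stages 13 and 14 in at least 1 limb. A set of 7 identifiers was also left out by the rule, of which 2 met every condition. The changes from stage to stage are therefore given as a description without a test.

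The libraries were RNASeq libraries of limbs of *Carollia perspicillata*, the short-tailed fruit bat, without treatment or genetic change. At stages 13 and 14 there were 3 forelimb and 3 hind limb libraries each, and at stage 15 there were 2 of each limb. The labels call 2 of the stage 14 forelimb libraries ES (early stage) and the 2 stage 15 forelimb libraries LS (late stage), and say that these embryos were collected in the field in Trinidad. The stage 13 forelimb libraries, the third stage 14 forelimb library and all hind limb libraries carry a stage number. In the forelimb the wording therefore changes along with the stage. The labels do not say how many embryos went into a library, nor whether a forelimb and a hind limb library came from the same embryos.

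A limb begins as a bud of mesenchyme under ectoderm, whose outgrowth and patterning depend on signals from the apical ectodermal ridge and the zone of polarizing activity. The distal bud then flattens into a paddle in which the digits are laid down as cartilage, while muscle precursors, vessels and nerves grow in. In bats the forelimb goes on to form a wing with long digits joined by membrane, whereas the hind limb digits stay short and free. Each identifier stands for 1 gene of a transcriptome that the authors assembled from the reads. Its first number gives the component, and the c number separates assembled genes within a component. The files pair no gene names with these identifiers, so the role of a member is not given, and no marker of a cell type could be looked up. In whole limbs, more cells of a type and more RNA per cell cannot be told apart.

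The smallest library held 13600741 expected counts, the median one 22714005 and the largest 61814821. At those totals 3 counts correspond to between 0.0485 and 0.221 CPM, and between 17095 and 20495 genes had a count of at least 1. Such limits cover counting error only. Within the 6 groups no library was a copy of another.

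Summed over the 46 members, the level was 206 ± 19.3 CPM in the stage 13 forelimb and 262 ± 6.38 CPM in the stage 14 forelimb (SD, n = 3 each). It was 1137 ± 17.1 CPM in the stage 15 forelimb (SD, n = 2). In the hind limb the sum was 219 ± 49.2 CPM at stage 13, 206 ± 16.8 CPM at stage 14 (SD, n = 3 each) and 836 ± 38.4 CPM at stage 15 (SD, n = 2). The rise of a member's level from stage 14 to 15 ran from 1.53 to 4.33 on the log2 scale in the forelimb, with a median of 2.21, and from 1.504 to 3.04 in the hind limb, with a median of 1.95. The same medians over the 11752 genes were 0.02 and 0.04. From stage 13 to 14 the members' medians were 0.23 in the forelimb and -0.06 in the hind limb. Mean rises over both limbs were 3 or more for 7 members, from 2 to 3 for 21 and under 2 for 18.

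**Figure D1:**
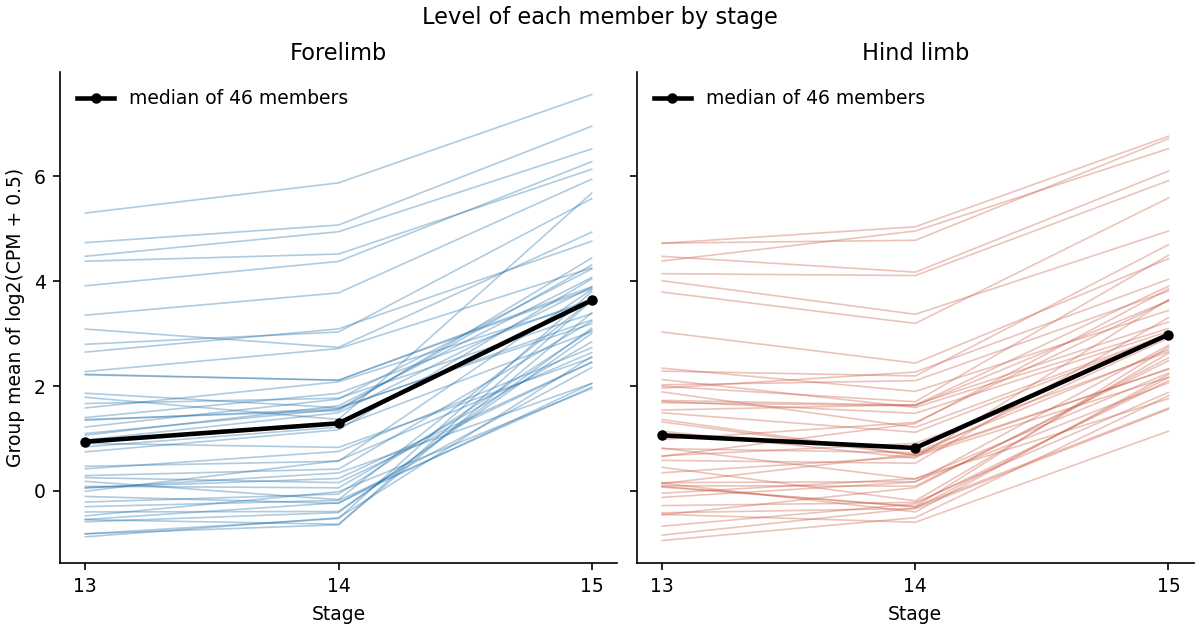
The level of each of the 46 members, as the group mean of log2(CPM + 0.5), is plotted against stage for the forelimb (left) and the hind limb (right), with 1 thin line per member and the median as a thick line. Lines run close to level between stages 13 and 14 and turn upward to stage 15, as the rule required, and they start from levels that differ widely among members.

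Members started from very different levels. In the 12 libraries of stages 13 and 14, 6 members stayed below 1 CPM in every library, 20 were at 1 CPM or more in every library, and the other 20 had libraries on both sides. The rule compared stage 15 with stage 14 alone, and in 43 of the 46 members every one of the 4 stage 15 libraries lay above all 12 earlier libraries of both limbs, as in 8.98% of the 11752 genes. Most of this follows from the rule, so nothing is read from it. The exceptions were comp97620_c0, comp122645_c0 and comp125345_c0. For comp122645_c0, 1 hind limb library of stage 13 stood at 10.99 CPM, above the 7.69 and 7.76 CPM of the stage 15 hind limb, although the other 2 stage 13 hind limb libraries were at 1.18 and 1.32 CPM.

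On the log2(CPM + 0.5) scale, the largest mean rise belonged to comp114064_c0. Its forelimb libraries were at 0.0678, 0.145 and 0 CPM at stage 13, at 0.107, 0.228 and 0.0919 CPM at stage 14, and at 10.8 and 13.0 CPM at stage 15. Its hind limb libraries were at 0.123, 0.0588 and 0 CPM at stage 13, at 0.945, 0.129 and 0.0558 CPM at stage 14, and at 3.56 and 4.44 CPM at stage 15. The gene was thus near the limit of counting in the early libraries, apart from the first stage 14 hind limb library, and well above it in all 4 stage 15 libraries, with the forelimb above the hind limb. The level rose by 4.27 ± 0.16 in the forelimb and 2.49 ± 0.46 in the hind limb (log2, SE). So near the limit of counting, its size depended on the scale: the forelimb rise was 5.67 with a pseudocount of 0.1, 3.495 with one of 1 and 3.33 from TPM.

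A similar course was seen for comp42292_c0. At stage 13 its forelimb libraries were at 0.0678, 0.145 and 0 CPM and its hind limb libraries at 0.491, 0 and 0 CPM. At stage 14 the forelimb was at 0.321, 0.228 and 0.0613 CPM and the hind limb at 1.09, 0.178 and 0.0558 CPM. At stage 15 the forelimb reached 11.1 and 16.3 CPM and the hind limb 3.67 and 3.91 CPM. Here too the first hind limb library was the highest of its group at both early stages, and the stage 15 libraries did not overlap between limbs. Its forelimb rise was 4.33 ± 0.31 (log2, SE), the highest of the 46 on this scale, and 5.59 with a pseudocount of 0.1 and 3.59 with one of 1, where comp114064_c0 and comp117953_c0 respectively rose more.

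Of the other members with a mean rise near 3, comp116154_c0 was at 0.307 CPM on average in the stage 14 hind limb and 0.148 CPM in the stage 14 forelimb, and reached 4.27 and 10.02 CPM at stage 15. The hind limb rise was largest for comp108517_c0. Its hind limb libraries were at 0.860, 0.412 and 0.468 CPM at stage 13, at 0.691, 0.178 and 0.168 CPM at stage 14 and at 5.25 and 7.29 CPM at stage 15. The libraries of stages 14 and 15 did not overlap, and the rise was 3.04 ± 0.35 in the hind limb and 3.52 ± 0.36 in the forelimb (log2, SE). For comp111831_c0 the stage 15 libraries were close together within each limb, at 13.1 and 10.96 CPM in the forelimb and 6.30 and 6.40 CPM in the hind limb. They were less close for comp113348_c0 in the forelimb, at 10.1 and 18.8 CPM. The member comp121995_c0 rose by about as much in the hind limb (3.02 ± 0.59) as in the forelimb (2.91 ± 0.36, log2, SE).

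**Figure D2:**
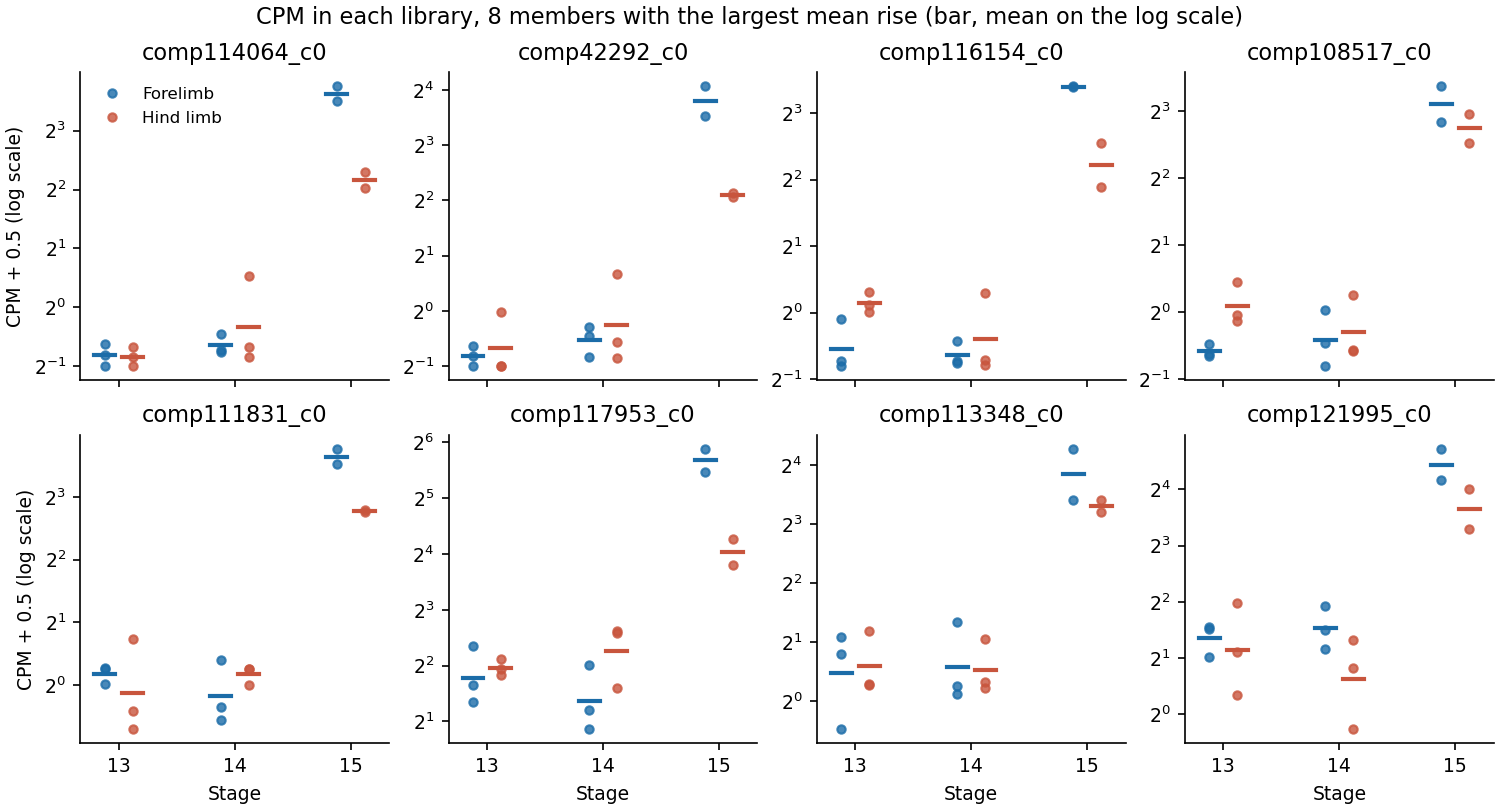
The CPM of each library plus 0.5 is plotted on a log scale against stage for the 8 members with the largest mean rise, with 1 point per library and a bar at the group mean on the log scale (forelimb blue, hind limb red). The stage 15 points lie above all earlier points in each panel. In every panel but that of comp108517_c0 the forelimb points of stage 15 lie above the hind limb points without overlap. For comp113348_c0 they do so only narrowly, at 10.12 against 10.08 CPM.

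The member comp117953_c0 was already measurable at the earlier stages. Its forelimb libraries were at 2.03, 2.65 and 4.63 CPM at stage 13, at 3.54, 1.32 and 1.81 CPM at stage 14, and at 43.8 and 58.4 CPM at stage 15. Its hind limb libraries were at 3.07, 3.82 and 3.32 CPM at stage 13, at 5.64, 2.54 and 5.47 CPM at stage 14, and at 13.4 and 18.8 CPM at stage 15. The limbs overlapped at stages 13 and 14 and parted at stage 15, where both forelimb libraries stood above both hind limb libraries. Its forelimb rise was 4.31 with a pseudocount of 0.5, 4.06 with one of 1 and 4.77 from TPM (log2). In mean CPM the stage 15 level was 23.0 times the stage 14 level in the forelimb and 3.54 times in the hind limb. The difference between its rises in the limbs, 2.55 on the log2 scale, was the largest of the 46.

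Per kilobase of length, the highest stage 15 levels belonged to comp118867_c0 with 56.3 CPM per kilobase and comp120010_c0 with 41.2 CPM per kilobase, followed by comp117953_c0, comp126368_c0 and comp122415_c0 with 18.4, 16.3 and 14.9 CPM per kilobase. The median of the members was 5.32 CPM per kilobase at stage 15, against 11.1 over the 11752 genes, and 0.748 against 10.8 CPM per kilobase at the earlier stages. At stage 15 comp118867_c0 was at 92.5 and 89.9 CPM in the forelimb and 106 and 104 CPM in the hind limb. At stage 14 it was at 34.6, 28.1 and 28.4 CPM in the forelimb and 27.4, 25.6 and 27.8 CPM in the hind limb. The libraries of a group lay close together and the stages far apart, so that a rise of 1.58 ± 0.10 in the forelimb and 1.94 ± 0.04 in the hind limb came from an abundant transcript (log2, SE). The rise of comp126368_c0 was nearly the same in both limbs, 1.90 ± 0.19 and 1.93 ± 0.32, and that of comp122415_c0 was 2.54 ± 0.18 in the forelimb and 1.59 ± 0.37 in the hind limb (log2, SE).

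The rise was larger in the forelimb for 28 members and in the hind limb for 18, and for 33 the rises were within 0.5 of each other on the log2 scale. Where they differed by more than 1, the forelimb had the larger rise in all 8 members. Among these, comp84158_c0 and comp97620_c0 reached the CPM minimum only through the forelimb, with hind limb means of 0.827 and 0.628 CPM. The shares of all genes leaning to each limb are not given. The strongest lean toward the hind limb was that of comp111402_c0, which rose by 1.61 ± 0.73 in the forelimb and 2.27 ± 0.56 in the hind limb (log2, SE). Its forelimb SE exceeds the difference of 0.65 between them. Its stage 15 libraries were at 14.9 and 6.53 CPM in the forelimb and 20.6 and 10.1 CPM in the hind limb, so that the limbs overlapped. Next came comp99610_c0, with 2.06 ± 0.44 in the forelimb and 2.47 ± 0.23 in the hind limb (log2, SE).

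**Figure D3:**
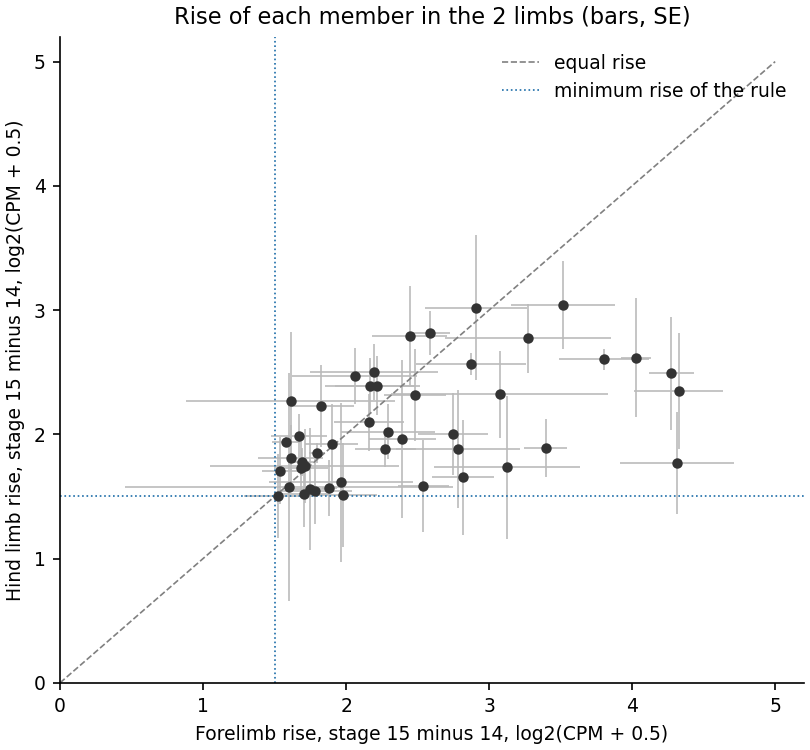
The rise from stage 14 to 15 in the hind limb is plotted against that in the forelimb for each of the 46 members, both on the log2(CPM + 0.5) scale with bars for the SE. Dotted lines mark the minimum of 1.5 and the dashed line equal rises. The 8 members whose rises differ by more than 1 all lie below the dashed line. Among them, comp84158_c0 and comp97620_c0 reached the CPM minimum only through the forelimb.

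To look at the rise in libraries that took no part in the choice, genes were chosen by the same conditions in 1 limb alone, with the CPM minimum over the libraries of that limb and the same 7 identifiers left out, and tested in the other limb. The forelimb conditions alone chose 169 genes, among them the 46 members. In the hind limb 92 of the 169 (54.4%) were called higher at stage 15 than at stage 14 and 0 were called lower (edgeR quasi-likelihood test, Benjamini-Hochberg adjusted p under 0.05), where 3.74% of all 15305 genes tested were called higher. The estimate was higher for 167 of the 169, and its median was 1.59 against -0.01 over all genes tested (log2). A hind limb rise of 1.5 or more on the log2(CPM + 0.5) scale was seen in 72, against 2.17% of all genes tested. The 46 members are among these 72 by definition, since the rule required this rise of each member. The hind limb count was far lower without either stage 15 library, which leaves 1 library at that stage. The share of all genes called with a library left out is not given, here or for the forelimb below. The drop is therefore not read as a trait of the chosen genes.

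The hind limb conditions alone chose 130 genes, including 42 of the members. The remaining 4 members missed the minimum CPM when it was taken over the hind limb libraries only. In the forelimb 115 of the 130 (88.5%) were called higher at stage 15 and 0 lower by the same edgeR test, against 8.46% of all 15015 genes tested. The median estimate was 1.87 on the log2 scale, with -0.01 over all genes tested, and 87 genes rose by 1.5 or more, against 3.19% of all genes tested. The 42 members are among these 87, again by definition. Without any 1 of the 5 forelimb libraries the count was between 82 and 111. Whether limbs of the same embryos were sampled is not given, so the libraries of the other limb may not be independent animals.

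**Figure D4:**
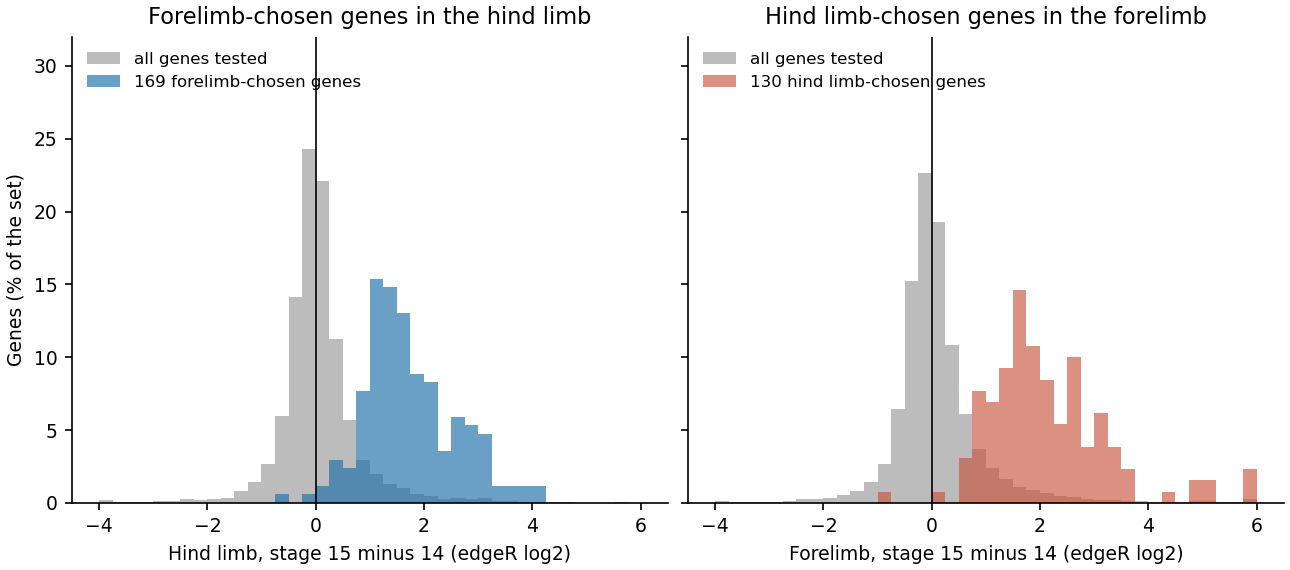
Histograms of the edgeR log2 estimate of stage 15 against 14 are shown in the hind limb for the 169 genes chosen in the forelimb (left) and in the forelimb for the 130 genes chosen in the hind limb (right), each beside all genes tested in grey, as a percentage of the set, with values beyond the ends placed in the end bins. Both chosen sets lie to the right of 0, with medians of 1.59 and 1.87, while the grey histograms are centred near 0.

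The rule was also applied with each stage 15 library left out. The left-out library was then compared with the stage 14 libraries of its limb, which had taken part in the choice. Genes with low values in those stage 14 libraries were thus favoured, which raises the shares of chosen genes given below. The shares over all genes carry no such choice, so the 2 are not like for like. Without the first or the second forelimb library 44 and 42 genes were chosen, and in all of these the left-out library lay above every stage 14 library, where 37.3% and 36.5% of the 11752 genes did. Without the first or the second hind limb library 49 and 47 genes were chosen, again with the left-out library above stage 14 in all, against 31.5% and 33.1% of all genes. In the left-out library the rise was 1.5 or more in 39 of 44, 39 of 42, 33 of 49 and 33 of 47 genes, in the same order, against 2.62%, 2.88%, 2.22% and 2.36% of the 11752 genes. The smallest rise in a left-out library was 0.48, in the second forelimb library for comp125345_c0.

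Membership itself depended on single libraries and on the scale. With each of the 16 libraries left out in turn the rule chose between 40 and 51 genes, but only 7 of the 46 members were chosen every time. With a pseudocount of 0.1 or 1 in place of 0.5, 33 and 32 of the members were chosen again, and with the deposited TPM (transcripts in 1000000) in place of CPM 20 were. With TMM library sizes 42 were chosen again, and with counts thinned to the lowest total 39 were. The members chosen each time under all of these and also without the length or CPM minimum were comp113348_c0, comp126368_c0 and comp128547_c0, the last of which is named here after its values were seen. Just inside the minimum rise, the smaller of the rises in the limbs was 1.504 for comp126733_c0, 1.51 for comp108482_c0 and 1.52 for comp109806_c0. Just outside it, comp110950_c0, comp109948_c0 and comp104587_c0 met every other condition with smaller rises of 1.4995, 1.49 and 1.49. In all, 168 genes missed exactly 1 condition, most often the hind limb rise (58 genes) or the evenness of the forelimb before stage 14 (47 genes).

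The labels of the forelimb libraries differ in wording, and the rise was therefore also taken within each wording, a step added after the data were seen. Since the rule used the same libraries, these values are largely fixed by it and are given as a description. Against the 2 ES libraries alone the forelimb rise of the LS libraries was 1.5 or more in 45 of the 46 members, with a median of 2.28. Against the third stage 14 forelimb library alone it was so in 42 members, with a median of 2.23. That library was the highest of its group for 12 members, the middle one for 22 and the lowest for 12.

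The contrast between limbs within a stage was not used to choose the members. At stage 13, 38 members had enough counts to be tested and 0 were called, by edgeR and also by DESeq2, where edgeR called 0.0747% of all 14729 genes. An unadjusted p under 0.05 in edgeR was seen for 4 of them (10.5%), and for 6.08% of all genes. At stage 14, 40 members were tested and 0 were called by edgeR, against 0.155% of all 14829 genes, and DESeq2 called 1. An unadjusted p under 0.05 in edgeR was seen for 7 (17.5%), and for 7.29% of all genes. At stage 15 all 46 were tested and 5 were called, each higher in the forelimb, against 0.823% of all 14826 genes. Among all genes called at stage 15, 101 were higher in the forelimb and 21 in the hind limb. DESeq2 called 6 members, including the 5. Of the 46, 4 reached the CPM minimum only through the forelimb libraries, which favours this direction, and of the 42 that reached it in each limb 4 were called. The edgeR fit of all 16 libraries together called 0, and the smallest adjusted p among the 5 was then 0.644. The shares of all genes called by DESeq2 and by that fit are not given, so these counts have no background beside them.

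The 5 called members were comp117953_c0, comp42292_c0, comp114064_c0, comp128935_c0 and comp84158_c0. For comp117953_c0 the stage 15 forelimb was higher by 1.67 ± 0.22 (log2, SE, edgeR adjusted p = 0.00354), on the library values given above. For comp42292_c0 the difference was 1.84 ± 0.30 (edgeR adjusted p = 0.00941), and for comp114064_c0 it was 1.57 ± 0.29 (edgeR adjusted p = 0.0216). The call of comp114064_c0 was lost without the second forelimb library (edgeR adjusted p = 0.0614) and without the first hind limb library (edgeR adjusted p = 0.108). These 3 genes are among the 8 with the largest mean rise.

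The 2 remaining genes differed from each other in level. The longest member, with 10277 bases, was comp128935_c0, and its forelimb libraries were at 31.5, 49.5 and 37.5 CPM at stage 13, at 54.4, 52.9 and 68.1 CPM at stage 14 and at 209 and 169 CPM at stage 15. Its hind limb libraries were at 35.1, 15.9 and 30.8 CPM, at 39.7, 31.6 and 26.7 CPM and at 97.7 and 119 CPM at the same stages. The forelimb stood above the hind limb without overlap at stages 14 and 15 alike, and the rises were nearly equal, 1.68 ± 0.19 and 1.73 ± 0.22 (log2, SE). The limb difference was 0.80 ± 0.19 at stage 14 (edgeR adjusted p = 0.2497) and 0.79 ± 0.15 at stage 15 (edgeR adjusted p = 0.0254), and whether these differ was not tested. The stage 15 call was lost without the first hind limb library (edgeR adjusted p = 0.1295). The other, comp84158_c0, was below 0.5 CPM in all 12 earlier libraries, and reached 7.01 and 8.06 CPM in the forelimb and 2.09 and 2.84 CPM in the hind limb. It was at 2.08 CPM on average over the forelimb libraries and 0.827 CPM over the hind limb libraries, so that it met the minimum of 1 CPM only through the limb in which it was then higher. Its difference at stage 15 was 1.62 ± 0.33 (edgeR adjusted p = 0.0416), and it was no longer called without the first hind limb library (adjusted p = 0.281), without the second hind limb library (adjusted p = 0.1002) or without the second forelimb library (adjusted p = 0.0919).

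The largest estimate at stage 15 was not among the called genes. For comp97620_c0, named here after its values were seen, the forelimb was at 6.75 and 9.17 CPM and the hind limb at 2.73 and 1.00 CPM, a difference of 2.01 ± 0.43 (log2, SE, edgeR adjusted p = 0.0647). This gene too met the CPM minimum only through the forelimb, with means of 2.34 CPM over the forelimb and 0.628 CPM over the hind limb libraries.

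Over the members tested, the median of the forelimb minus the hind limb estimate was -0.08 at stage 13, 0.19 at stage 14 and 0.45 at stage 15 (log2), where the medians over all genes were between -0.04 and 0.01. At stage 13 the forelimb libraries lay above every hind limb library in 0 members and below in 5, with 4.69% and 6.03% over all genes. At stage 14 they lay above in 10 members and below in 0, with 9.85% and 4.96% over all genes. At stage 15 they lay above in 30 members and below in 3, with 20.1% and 16.5% over all genes. Among the 42 members that reached the CPM minimum in each limb, the stage 15 median was 0.41, with 27 above and 3 below. The 2 stage 15 forelimb libraries carry the LS label and the 2 hind limb libraries a stage number. The wording and the limb therefore cannot be told apart at this stage. At stage 14 they are partly mixed, since 2 of the forelimb libraries carry the ES label and no hind limb library does. For the stage 14 forelimb library with a stage number, the members' median difference from the hind limb was 0.10 (log2). Over all genes it was 0.07. Above 0 were 28 of the 46 members, and the share of all genes above 0 is not given. These values rest on 1 forelimb library, and the part of the wording in the medians was not tested.

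**Figure D5:**
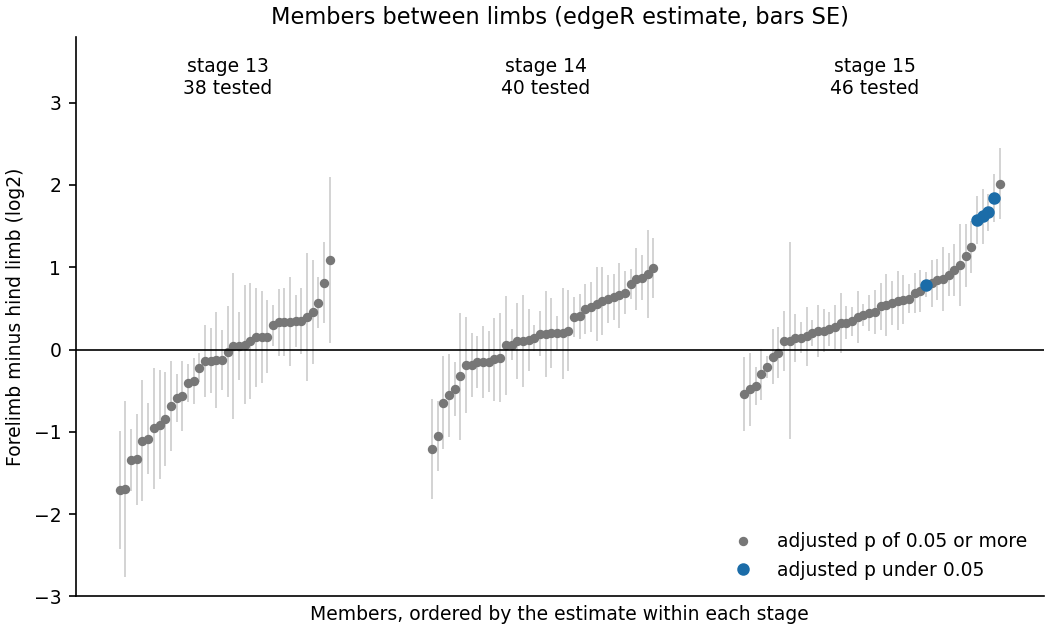
The edgeR estimate of forelimb minus hind limb (log2) is plotted for each member tested at stages 13, 14 and 15, in order of size within a stage, with bars for the SE. Blue points mark an adjusted p under 0.05, which occurs for 5 members at stage 15, and at stage 15 39 of the 46 estimates are above 0.

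Assembled genes can hold several isoforms, and the deposited length of a gene is weighted by the share of each isoform, so that it moves when the shares move. The members had a median length of 2228 bases, against 2534 over the 11752 genes. A single isoform was listed for 20 members (43.5%, and 33.6% over all genes), 2 to 4 for 19 and 5 or more for 7.

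Total counts chose the members, but isoform shares did not. Of the 26 members with several isoforms, 18 had enough counts to be tested in each limb. In the forelimb 1 was called between stages 14 and 15 (limma on log2 length, Benjamini-Hochberg adjusted p under 0.05), against 0.145% of all 8267 genes tested. An unadjusted p under 0.05 was seen for 5 members, and for 9.87% of all genes. The called member was comp117953_c0. Its weighted length was 1970, 2020 and 2034 bases in the stage 14 forelimb libraries and 1354 and 1377 bases at stage 15. The stages did not overlap, and the length fell by 0.56 ± 0.02 on the log2 scale (SE, limma adjusted p = 0.0314). It was not called once any 1 of the 5 libraries was left out, with adjusted p between 0.131 and 0.223.

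In the hind limb 0 of the 18 members were called by limma, and 0.0% of all 8366 genes. An unadjusted p under 0.05 was seen for 2 members, and for 6.38% of all genes. The weighted length of comp117953_c0 was 1689, 2013 and 2020 bases in the stage 14 hind limb and 1475 and 1461 bases at stage 15. The stages did not overlap there either, with a change of -0.37 ± 0.10 (log2, SE, limma adjusted p = 0.698). Of the uncalled changes in the forelimb, the largest were those of comp125345_c0 and comp108746_c0. They were 0.57 ± 0.13 (limma adjusted p = 0.378) and -0.51 ± 0.07 (limma adjusted p = 0.251), in that order (log2, SE). A longer weighted length at stage 15, by 0.33 ± 0.06, was seen in the forelimb for comp121995_c0 (log2, SE, limma adjusted p = 0.298). Its lengths were 2426, 2429 and 2698 bases at stage 14 and 3147 and 3180 bases at stage 15. In the hind limb this gene had too few counts to be tested. Its lengths there were 2550, 2461 and 2812 bases at stage 14 and 3465 and 3382 bases at stage 15, again without overlap. At stage 13 they were 2387, 2329 and 3313 bases in the forelimb and 3400, 2294 and 2815 bases in the hind limb. In each limb 1 stage 13 library thus reached the stage 15 lengths.

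The members with the most isoforms were comp125345_c0 with 46 and comp116486_c0 with 43. At stage 15 comp125345_c0 was at 19.3 and 3.69 CPM in the forelimb and 16.1 and 4.74 CPM in the hind limb, and its highest earlier library was at 4.18 CPM. In both limbs the first stage 15 library was high, and the second lay near the earlier libraries. The rise of 1.60 ± 1.15 in the forelimb and 1.57 ± 0.92 in the hind limb had the largest SE of the 46 in each limb (log2). On the log2(CPM + 0.5) scale its first stage 15 library was higher by 2.24 in the forelimb and 1.66 in the hind limb. The next such case was comp111402_c0, with 1.14 and 0.998. For comp116486_c0 the stage 15 libraries were at 5.14 and 8.62 CPM in the forelimb and 2.65 and 5.04 CPM in the hind limb, above the highest earlier library at 1.00 CPM.

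The deposited tables also give lower and upper credibility bounds of the TPM of each gene in each library, which do not cover the differences between libraries. The lower bounds of both stage 15 libraries lay above the upper bounds of all 3 stage 14 libraries for 43 members in the forelimb. This held for 42 members in the hind limb and 40 in both limbs. Over the 11752 genes the shares were 7.51%, 9.16% and 4.73%, in the same order. Since the rule had already set the stages apart in CPM of the same libraries, these counts largely follow from it and are no further evidence of the rise. The 6 members without it in both limbs were comp116486_c0, comp111402_c0, comp111728_c0, comp105052_c0, comp122645_c0 and comp125345_c0, and comp125345_c0 lacked it in each limb. At stage 15 the widest ratio of upper to lower bound of a member was between 1.09 and 2.58, with a median of 1.44. Both ends belonged to members with 1 isoform. The ratio of 2.58 was that of comp97620_c0, with a lowest stage 15 expected count of 16.9. That of 1.09 was for comp128935_c0, with a lowest count of 2014.

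Libraries of a group differed more, by the median, in the members than over all genes. The median coefficient of variation (CoV, SD over mean of CPM) of the members was 0.402, 0.328 and 0.145 in the forelimb at stages 13, 14 and 15, against 0.179, 0.117 and 0.106 over the 11752 genes. In the hind limb it was 0.485, 0.362 and 0.202, against 0.143, 0.171 and 0.0884. The members' earlier levels per length were lower than those of other genes, as given above, and the part of low counts in these values was not tested.

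The libraries that stood high were partly the same for many members. At stage 13 the first hind limb library was the highest of its 3 for 29 of the 46 members (63.0%, and 33.3% over the 11752 genes). At stage 14 the first hind limb library was the highest for 28 members (60.9%, and 32.9% over all genes). At stage 15 the second hind limb library was the higher for 31 members (67.4%, and 49.97% over all genes). In the forelimb each of the 2 stage 15 libraries was the higher for 23 members. The summed level of the members was 276 CPM in the first stage 13 hind limb library and 196 and 186 CPM in the others, which is far below the 809 and 863 CPM of the stage 15 hind limb.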

How the data were processed

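RNASeq libraries of bat limbs (16, in 6 groups of limb and stage) were compared. The authors trimmed the reads, assembled a bat transcriptome with Trinity and mapped the reads to it with RSEM, which the submitters' processing notes also name, beside STAR and Cufflinks. Raw expected counts per gene, as RSEM estimates them, were deposited without scaling. TPM, which the authors' RSEM run scaled by length and total, served only as an alternative. The deposited lengths are weighted by isoform share, and the deposited credibility bounds of TPM (a score here) were compared as given. The FPKM, effective length and other columns were not used here. Groups and replicate numbers came from the labels, with ES taken as stage 14 and LS as stage 15 from the protocol. The members and lists were chosen with earlier results of these data known.

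CPM was the expected count over the library sum times 1000000. Counts rounded to whole numbers were tested with edgeR 4.0.16 (TMM, robust quasi-likelihood, R 4.3.3) on genes with a count of at least 10 in as many libraries as the smaller group, fitting only the groups compared, with Benjamini-Hochberg adjustment over all genes tested and a threshold of 0.05. Log2 lengths were tested with limma 3.58.1 on genes with at least 2 isoforms and a count of at least 10 in each library. The labels name no separate animals, so p-values measure only the spread between libraries, which may be technical.

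Named were the 8 members with the largest mean rise, the 5 highest at stage 15 per length, 3 genes on each side of the minimum rise, those called by a test, up to 8 a stage between limbs and up to 5 a limb for length, members sharing a component number (there were 0), the 2 members leaning most to each limb, and the 2 with the most isoforms. Others are named as exceptions.

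Alternatives were DESeq2 1.42.0, RLE factors, other filters, 1 fit of all libraries, matched depth (counts thinned to the lowest total), a replicate block, other pseudocounts, TMM library sizes, TPM, no length or CPM minimum, and each library left out. Scripts were tested on simulated data and ran in Python 3.11.15 (numpy 2.4.6, pandas 2.3.3), with figures from matplotlib 3.10.9.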

Additional observations from a re-analysis of the deposited data

How the results depend on the processing

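The number of members was between 33 and 61 under the other scalings, pseudocounts and minimums, and between 40 and 51 with each library left out. For the counts of calls that follow, the share of all genes called under each alternative is not given. They therefore have no background beside them. In each leave-one-out fit the members called between limbs were 0 at stage 13, 0 at stage 14 and 3 to 6 at stage 15. At stage 14 DESeq2 called 1 member in place of 0. At stage 15, in place of 5 members, the fit of all 16 libraries called 0, that without a count filter 8 and that with the replicate block 8, while of the members at the CPM minimum in each limb, an alternative added after the data were seen, 4 were called. Forelimb-chosen genes called in the hind limb were 13 to 99 with a library left out, with 13 without the first and 14 without the second stage 15 hind limb library, which leaves that stage with 1 library. Hind-limb-chosen genes called in the forelimb were 82 to 111. In the forelimb the 1 member called for length became 0 with the stricter count minimum of 50, with the replicate block and with each library left out, and in the hind limb the count was 0 throughout.

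Whether the replicate numbers pair the samples is not given by the labels. Same-numbered libraries of the limbs had correlations of their deviations from -0.17 to 0.20 at stage 13 and from -0.09 to 0.64 at stage 14. Libraries with different numbers had correlations from -0.23 to 0.17 at stage 13 and from -0.50 to 0.38 at stage 14. At stage 15 the value was 0.21 for the same number. With 2 libraries per limb, that for different numbers was by construction its mirror, -0.21. These values do not settle the pairing. With the replicate block 0 members were called between limbs at stages 13 and 14, and 8 at stage 15 in place of 5. Of the 169 forelimb-chosen genes 111 were then called in the hind limb, in place of 92. Of the 130 hind-limb-chosen genes 114 were called in the forelimb, and 0 members were called for hind limb length. No direction was reversed among the tests of single members, of which 45 stayed called and 18 did not. Of the rises of named genes under the other scalings and pseudocounts, 184 moved by less than the SD between libraries and 56 by more.

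With 2 libraries per limb at stage 15, leaving 1 out assumes that the lone library varies like the others. Members near the limit of counting at stages 13 and 14 have rises that move with the pseudocount.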
